A study of Mus musculus with 20 samples.

Results

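Nfix, Tcf4, Zbtb18 and Zbtb20 are 4 transcription factors of the developing and adult nervous system, and they were followed here across 4 brain regions of mice that carry a null mutation. They are 4 of 7117 genes with a symbol on the array. Their selection came from an earlier reading of the ratios of null over wild type on these same arrays. The ratios are therefore given as a description, with no test. Every probe with 1 of these 4 symbols was taken, which gave 6 probes. Nfix and Zbtb18 had 1 probe each, and Tcf4 and Zbtb20 had 2 each, which are kept apart throughout. Of the 6 probes 4 had enough values to enter the fit across all probes, 1 for each gene.

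Nfix is a member of the nuclear factor I (NFI) family, whose proteins bind DNA as dimers and help neural progenitors and glia to mature. Tcf4 is a class I basic helix-loop-helix (bHLH) factor, also called an E protein, which pairs with proneural factors to bind the short sequence known as the E-box, and Id proteins block that pairing. Zbtb18 (also RP58) and Zbtb20 belong to the BTB zinc finger family, which bind DNA through zinc fingers and mostly repress transcription. Zbtb18 is known for its part in the differentiation of cortical neurons, and Zbtb20 for its part in the hippocampus and in astrocyte formation.

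The series held 20 cDNA arrays with 2 channels, 5 each for cortex, hippocampus, cerebellum and brain stem-diencephalon. On each array amplified RNA of a mouse carrying the null mutation was set against a pool of wild-type RNA from that region. In every region 3 arrays carried the null RNA in channel 1, and 2, named dye swaps, carried it in channel 2. The labels give no strain, age, sex or kind of null allele, and they do not say whether different numbers stand for different animals, so that the spread between replicates may be technical. The mutated gene is not reported here, so the labels were not checked from its own transcript. A ratio within a region gives no level of expression, so the labelled tissue could not be checked from marker levels.

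Values are log2 ratios of null over wild type after each array was centred on its median. The order of the channels in the deposited ratios is only likely, taken from the order in the labels, and all signs below would turn if it were the opposite. An array gave values for 6793 to 13963 of its 15245 probes. Precision is limited by how few arrays there are. The swapped array of cerebellum number 1 was nearly the same as the swapped array of brain stem-diencephalon number 2 (Pearson correlation 0.995 over 6748 probes), so it is called the repeated array, and its region is uncertain. Same-numbered arrays within a region were averaged into a single replicate, which gave 4 replicates in cortex and 3 in each other region. The swapped cortex array with no number was counted as the fourth cortex replicate, and the labels do not say whether it shares RNA with a numbered one.

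The stretches upstream of 3 of the genes are shown because the members bind short, known sequences, so that a reader can see whether these letters stand before the genes themselves. The windows are the 250 bases before the outermost start listed by RefSeq on GRCm38.p6, written 5′ to 3′ on the strand of the gene, with matches in capitals. The letters searched on both strands were CANNTG (the E-box, bound by Tcf4 with its partners), ACATCTG (the core bound by Zbtb18, which contains an E-box) and TTGGC (the core bound by NFI proteins). Zbtb18 lies at chr1:177442101-177442350 (+ strand), Nfix at chr8:84780083-84780332 (- strand) and Zbtb20 at chr16:43247034-43247283 (+ strand).
Zbtb18: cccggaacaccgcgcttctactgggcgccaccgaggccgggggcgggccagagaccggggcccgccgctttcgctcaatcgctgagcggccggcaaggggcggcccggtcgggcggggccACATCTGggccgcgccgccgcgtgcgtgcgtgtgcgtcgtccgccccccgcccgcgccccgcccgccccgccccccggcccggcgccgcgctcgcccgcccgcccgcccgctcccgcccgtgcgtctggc
Nfix: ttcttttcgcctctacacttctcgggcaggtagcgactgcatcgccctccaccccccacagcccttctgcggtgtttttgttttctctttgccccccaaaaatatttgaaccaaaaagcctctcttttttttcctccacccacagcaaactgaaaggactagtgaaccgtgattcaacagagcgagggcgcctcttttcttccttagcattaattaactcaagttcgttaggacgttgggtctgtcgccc
Zbtb20: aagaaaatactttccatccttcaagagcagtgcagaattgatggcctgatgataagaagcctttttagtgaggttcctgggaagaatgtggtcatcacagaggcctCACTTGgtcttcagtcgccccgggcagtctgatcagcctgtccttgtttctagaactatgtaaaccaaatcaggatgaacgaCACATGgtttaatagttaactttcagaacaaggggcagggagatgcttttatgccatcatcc

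The window of Zbtb18 holds 1 match to the Zbtb18 core, in a stretch that is 84% G and C, and its E-box is that same match. Such a core was found in 3.71% of the 32851 windows of this length in the table, an E-box in 66.2% and the NFI core in 41.5%. Over all starts listed for a gene, 2 of 5 windows of Zbtb18 held the Zbtb18 core, and 0 of 4 of Nfix and 0 of 1 of Zbtb20 did. The window of Nfix printed above holds none of the 3 letter strings, and 2 of the 4 windows of Nfix hold the NFI core. The window of Zbtb20 holds 2 E-boxes. These matches describe letters and not binding.

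Nfix lay above 0 on 18 of the 19 arrays with a value, both copies of the repeated array among them, with a median of 0.86. In cortex its log2 ratio was -0.10 on array number 1, 0.69 and 0.85 on the pair of number 2, 0.62 on number 3 and 1.26 on the unnumbered array. In hippocampus it was 0.17 and 0.088 on the pair of number 1, 1.75 and 1.94 on the pair of number 2 and 1.75 on number 3. Array number 1 was thus the lowest in cortex and the pair of number 1 was the lowest in hippocampus, with a wide gap to the rest in hippocampus.

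In cerebellum the ratio of Nfix was 0.29 on number 1, 1.36 on the swapped array of number 1, which is the repeated array, 0.97 and 1.72 on the pair of number 2 and 1.39 on number 3. In brain stem-diencephalon it was 0.11 on the only array of number 1 with a value, 0.86 on number 2, 1.36 on the repeated array and 0.46 on number 3. The fitted mean over the 4 regions was 0.92 ± 0.15 (SE, n = 13), or 1.89-fold, the fifth highest of the 9701 probes tested, and 0.87 without the repeated array.

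Tcf4 was read by a pair of probes that did not match. Probe 12756 lay above 0 on 13 of 14 arrays with a median of 1.06, while probe 13480 lay below 0 on 9 of 11 arrays with a median of -0.28. For probe 12756 the ratios in cortex were -0.10 on number 1, 0.87 on number 2 and 1.54 on the unnumbered array, and in hippocampus 0.17 on number 1, 1.27 and 1.25 on the pair of number 2 and 1.40 on number 3. In cerebellum they were 0.27 on number 1, 1.41 and 1.59 on the pair of number 2 and 1.56 on number 3, and in brain stem-diencephalon 0.12, 0.55 and 0.29 on numbers 1, 2 and 3. As for Nfix, the array of number 1 was the lowest in every region.

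The fitted mean of Tcf4 probe 12756 was 0.80 ± 0.16 (SE, n = 12), or 1.74-fold, the eighth highest of all probes tested. The second probe of Tcf4, probe 13480, had too few values for the fit, with only 1 array in cortex (-0.63). It ran from -0.60 to 0.070 in hippocampus, from -0.48 to 0.0084 in cerebellum and from -0.37 to -0.21 in brain stem-diencephalon. On the unnumbered cortex array the probes stood at 1.54 and -0.63. The part of the transcript that each probe covers was not analysed here.

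**Figure D1:**
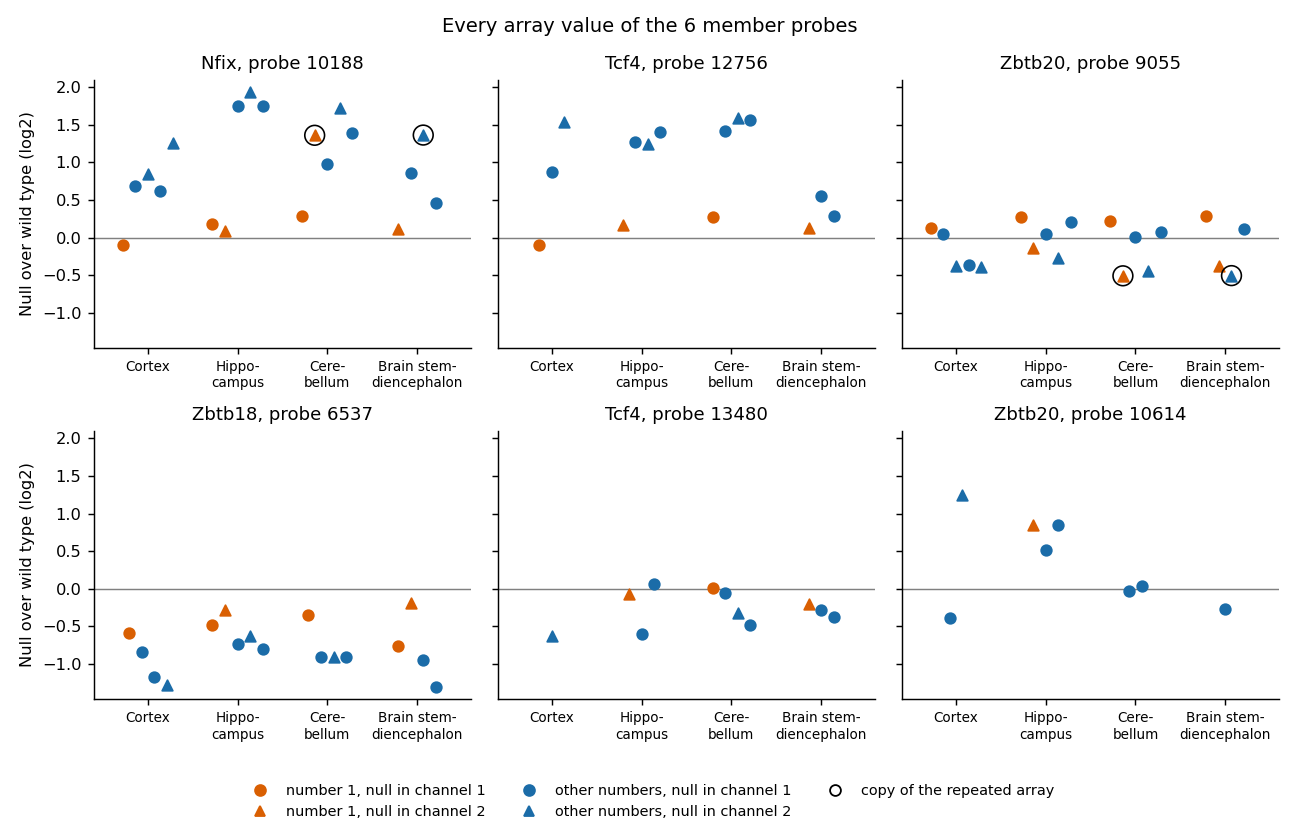
Log2 ratio of null over wild type on every array with a value, by region, for the 6 probes of the 4 genes. Circles are arrays with the null RNA in channel 1 and triangles those with it in channel 2, orange marks number 1, and rings mark the copies of the repeated array. Nfix and Tcf4 probe 12756 lay above 0 except on the number 1 array of cortex, and Zbtb18 lay below 0 on all 17 arrays.

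Zbtb18 lay below 0 on all 17 arrays with a value, from -1.30 to -0.20, with a median of -0.80. In cortex the log2 ratio was -0.58, -0.85, -1.17 and -1.28 on numbers 1, 2 and 3 and the unnumbered array. In hippocampus it was -0.48 and -0.29 on the pair of number 1, -0.73 and -0.62 on the pair of number 2 and -0.80 on number 3. The arrays of number 1 were again closest to 0 in both regions.

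In cerebellum the ratio of Zbtb18 was -0.34 on number 1, -0.90 and -0.91 on the pair of number 2 and -0.90 on number 3. In brain stem-diencephalon it was -0.76 and -0.20 on the pair of number 1, -0.95 on number 2 and -1.30 on number 3. The repeated array had no value for Zbtb18. The fitted mean was -0.83 ± 0.11 (SE, n = 13), a 1.77-fold lower ratio, which was number 26 from the lowest of the 9701 probes tested.

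Zbtb20 differed from the other 3 genes in how it behaved when the dyes were swapped. Probe 9055 lay above 0 on 10 of 11 arrays with the null RNA in channel 1 (from -0.36 to 0.29) and below 0 on all 8 arrays with it in channel 2 (from -0.51 to -0.13). These 8 include both copies of the repeated array (-0.51 on each). Read as channel 1 over channel 2, whatever the RNA, it was above 0 on 18 of 19 arrays. Its sign thus went with the channel. The ratio was larger in size with the null RNA in channel 2 (median -0.39) than in channel 1 (median 0.12). The medians of the orientations had opposite signs for 46.9% of all tested probes.

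The fitted mean of Zbtb20 probe 9055 was -0.14 ± 0.05 (SE, n = 13), the smallest in size of the 4, beside an orientation term of 0.21 ± 0.07. Without the repeated array the mean was -0.099 ± 0.063, and with only the arrays that held the null RNA in channel 1 it turned to 0.10. The second probe of Zbtb20, probe 10614, had values on 8 arrays and did not enter the fit. It was 0.52, 0.84 and 0.85 in hippocampus, -0.38 and 1.25 in cortex, -0.033 and 0.041 in cerebellum and -0.27 on the 1 array of brain stem-diencephalon. All 3 hippocampus arrays of this probe lay above 0, where probe 9055 ran from -0.27 to 0.28.

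The plot of swapped pairs sets these arrays side by side. For Nfix the members of 6 swapped pairs lay above 0 on both arrays, with differences from -1.07 to 0.086 between them, the largest in the cerebellum pair that holds the repeated array. The brain stem-diencephalon pair of Nfix (-0.50) holds its other copy. Zbtb18 lay below 0 on both arrays of its 4 pairs, and the 2 pairs of Tcf4 probe 12756 differed by 0.019 and -0.18. The 6 pairs of Zbtb20 probe 9055 had a value above 0 on the channel 1 array and below 0 on the channel 2 array. Their differences ran from 0.32 to 0.73, the largest in the cerebellum pair that holds the repeated array.

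**Figure D2:**
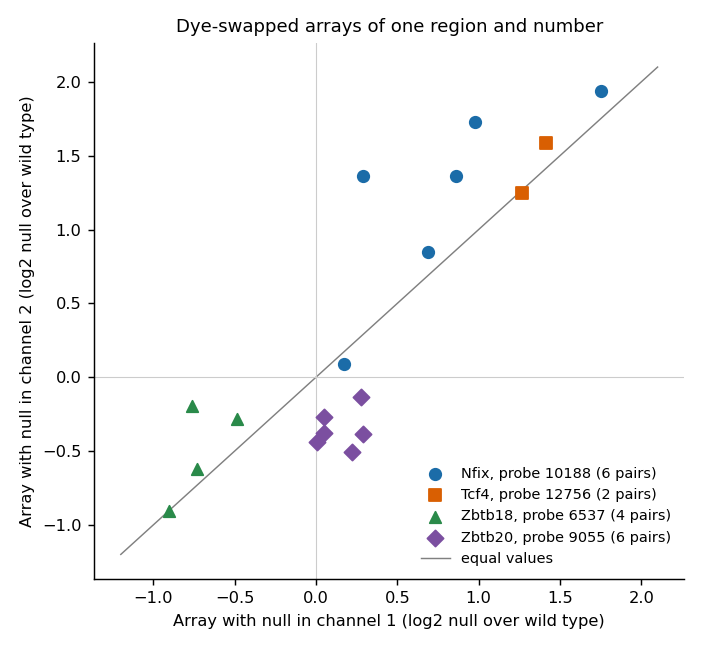
Log2 ratio of null over wild type on the array with the null RNA in channel 2 (vertical) against the array of the same region and number with it in channel 1 (horizontal), for the 4 probes that entered the fit. Points near the line of equal values kept their ratio after the swap. The Zbtb20 points lie right of and below 0, and those of Nfix, Tcf4 and Zbtb18 share one sign on both arrays.

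For 3 of the 4 tested members the arrays of number 1, without the repeated array, lay closer to 0 than the other arrays of the same region. Over replicates, in which swapped arrays were averaged and the repeated array was left out, the 4 values of number 1 lay between -0.10 and 0.29 for Nfix and the 9 other replicates between 0.46 and 1.84. The ranges were -0.10 to 0.27 against 0.29 to 1.56 for Tcf4 probe 12756, and -0.58 to -0.34 against -1.30 to -0.68 for Zbtb18, so that they did not overlap. Single arrays of Zbtb18 did overlap across regions, from -0.76 to -0.20 for number 1 and from -1.30 to -0.62 for the others. The ranges of Zbtb20 probe 9055 overlapped (-0.047 to 0.22 against -0.39 to 0.20). Over all probes with enough values, the replicates of number 1 did not overlap the others for 7.88% (740 of 9396). With the repeated array kept under cerebellum number 1, the value of that replicate for Nfix lay within the range of the others.

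The Y-linked gene Eif2s3y, which codes for a translation initiation factor, moved with the same numbers. Its replicates of number 1 lay between -1.36 and -0.54 and the others between 0.93 and 1.64, and it was 1.71 on the repeated array. Xist, the X-linked RNA that silences an X chromosome in females, was not lower where Eif2s3y was higher. Its probe 378 ran from -0.14 to 0.14 on 5 arrays of number 1, without the repeated array, and from 0.026 to 0.51 on 13 arrays of the other numbers. Its probe 6786 had medians of -0.0051 and 0.024. The part of sex, or of the animals, in the ratios of the 4 genes was not tested. Without the repeated array and the replicates of number 1, an alternative chosen after seeing the data, the mean was 1.29 ± 0.08 for Nfix, 1.22 ± 0.09 for Tcf4 probe 12756, -1.02 ± 0.08 for Zbtb18 and -0.11 ± 0.08 for Zbtb20, which is larger than the mean over all replicates by more than 1.5 times for Tcf4.

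**Figure D3:**
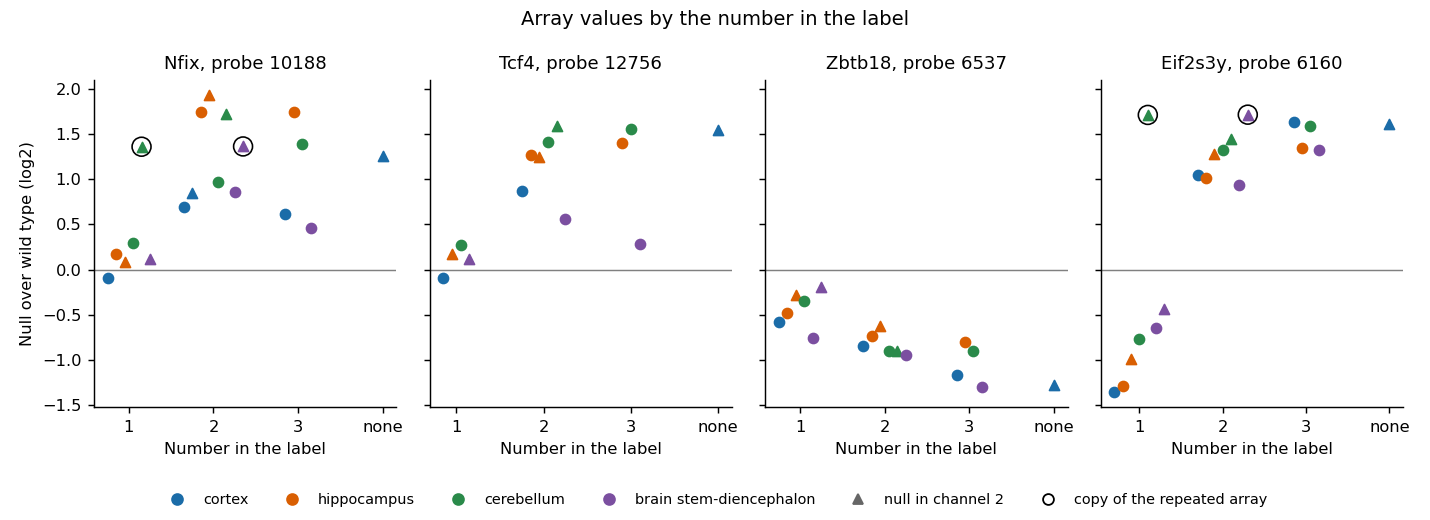
Log2 ratio of null over wild type by the number in the array's label for Nfix, Tcf4 probe 12756, Zbtb18 and the Y-linked gene Eif2s3y. Colours are regions, triangles are arrays with the null RNA in channel 2, and rings mark the repeated array, which appears under numbers 1 and 2. Number 1 arrays other than the repeated one lie between -0.10 and 0.29 for Nfix and below 0 for Eif2s3y.

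Whether the ratio of a member differed between regions was tested in the fit across all probes, since the members were not chosen on these differences, although earlier results on them were known. The order of the regions for Nfix was hippocampus (1.26 ± 0.30), cerebellum (1.21 ± 0.30), cortex (0.65 ± 0.26) and brain stem-diencephalon (0.56 ± 0.30; SE, n = 3, 3, 4 and 3). For Tcf4 probe 12756 it was cerebellum (1.13 ± 0.33), hippocampus (0.94 ± 0.30), cortex (0.78 ± 0.31) and brain stem-diencephalon (0.33 ± 0.31). Zbtb18 was lowest in cortex (-0.99 ± 0.16), then brain stem-diencephalon (-0.94 ± 0.19), cerebellum (-0.74 ± 0.19) and hippocampus (-0.63 ± 0.17). For Nfix the repeated array entered both cerebellum and brain stem-diencephalon. Without the repeated array these stood at 1.06 and 0.50, and the order of the regions was the same. These orders rest in part on the unnumbered cortex array. Without it cortex was the smallest for Nfix (0.31, with brain stem-diencephalon at 0.56) and for Tcf4 (0.15, with brain stem-diencephalon at 0.24). The value of Zbtb18 in cortex was then -0.66, and brain stem-diencephalon (-0.77) was the lowest. Over all alternatives cortex ran from 0.31 to 0.88 for Nfix, from 0.15 to 1.21 for Tcf4 and from -1.13 to -0.66 for Zbtb18.

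The F test of equal regions called 0 of the 4 member probes, beside 0% of the 9701 probes tested (0 called; limma, 422 at an unadjusted p under 0.05). Its adjusted p was 0.9996 for each member, and over the alternatives it lay between 0.0914 and 1 for Nfix, 0.274 and 1 for Tcf4, 0.471 and 1 for Zbtb18 and 0.676 and 1 for Zbtb20. With the number as a replicate block the adjusted p of the F test was 0.362 for Nfix, 0.274 for Tcf4, 0.471 for Zbtb18 and 0.778 for Zbtb20. The 6 pairwise differences of each member had an adjusted p of 0.9995 (limma). The intervals were wide, in a fit that leaves out what replicates of one number share across regions. The difference between hippocampus and brain stem-diencephalon was 0.70 for Nfix (95% interval -0.21 to 1.61), that between cerebellum and brain stem-diencephalon was 0.80 for Tcf4 (-0.13 to 1.74), and that between cortex and hippocampus was -0.36 for Zbtb18 (-0.83 to 0.12). The largest for Zbtb20 was -0.23, also between cortex and hippocampus (-0.52 to 0.052).

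**Figure D4:**
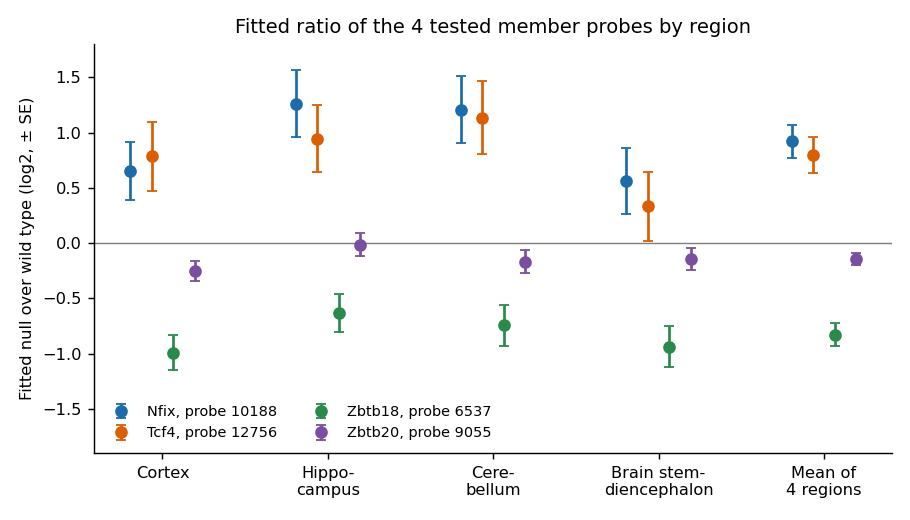
Fitted log2 ratio of null over wild type in each region and in the mean of the 4 regions for the 4 probes that entered the fit, with SE bars. Nfix and Tcf4 probe 12756 lie above 0, and Zbtb18 lies below 0 between -0.99 and -0.63. The SE bars of regions side by side overlap in some cases and not in others, as for Nfix in cortex (0.65 ± 0.26) and hippocampus (1.26 ± 0.30).

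In the mean of the 4 regions 26.1% of all probes tested were called at an adjusted p under 0.05 (13.6% higher and 12.5% lower). The members were chosen by this contrast, so nothing is read from their own calls. The number of probes called was 2529, and over all alternatives it ran from 1055 to 3751. Leaving out the repeated array gave 1647, leaving out the unnumbered array of cortex gave 1055, and the count was 1589, 1601 and 1608 without replicate 2 of hippocampus, cerebellum and brain stem-diencephalon.

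The relatives of the members gave a background for them. Of the NFI family, Nfia, which acts early in the formation of glia, fell by 0.34 ± 0.06 (1.27-fold) in 12 of 12 replicates (adjusted p = 0.00224, limma), opposite in sign to Nfix. Another probe of Nfia with values on only 8 arrays had a median of 0.46, so the probes of Nfia did not match either. A probe of Nfic had a median of -0.046 over 17 arrays and did not enter the fit.

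Of 14 tested probes for bHLH factors and Id inhibitors, which cover 11 genes, 2 were higher and 5 lower in the mean (50%, beside 26.1% of all probes, and 1 higher and 5 lower of 13 without Tcf4), and their median was -0.10 beside 0.014 over all probes tested. Tcf4 was 1 of the 2 higher probes, and Id2, an inhibitor of E proteins, was the other (0.14 ± 0.05, adjusted p = 0.0397, limma, higher in 10 of 13 replicates). The call of Id2 held in 12 of 25 alternatives, while its second probe stood at 0.090. Tcf3, another E protein, fell by 0.27 ± 0.07 on probe 14262 in 12 of 13 replicates (adjusted p = 0.0141), but its probe 9360 had a value of -0.0096 ± 0.10 (adjusted p = 0.954). The call of Tcf3 held in 23 of 25 alternatives and ended, among others, without cerebellum replicate 2 (adjusted p = 0.0635, limma).

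Among the other bHLH factors Tfeb, which drives lysosomal genes, fell by 0.31 ± 0.06 in 12 of 13 replicates (adjusted p = 0.00359), and this call held in all 25 alternatives that gave it a value. Usf2 fell by 0.21 ± 0.06 in 10 of 13 replicates (adjusted p = 0.0153, called in 20 of 25 alternatives), but had a value of 0.014 with only the arrays that held the null RNA in channel 1. Without the unnumbered cortex array 1 probe of this list was higher and 1 lower.

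The BTB zinc finger list had 13 tested probes of 11 genes, of which 3 were higher and 2 lower (38.5%, beside 26.1% of all probes), with a median of -0.050. Without the probes of Zbtb18 and Zbtb20, which were chosen on this contrast, 3 of 11 were higher and 1 lower (36.4%). Zbtb18 had the lowest value of the list by a wide margin. Zfp131 rose by 0.31 ± 0.08 (adjusted p = 0.0125, 11 of 13 replicates), and its other probe also passed (0.22). Patz1 rose by 0.23 ± 0.07 (adjusted p = 0.028, 11 of 13 replicates), and Zbtb45 fell by 0.29 ± 0.08 (adjusted p = 0.0198, 12 of 13 replicates). Without the unnumbered cortex array only 1 probe of the list was called, and the adjusted p of Zfp131, Patz1 and Zbtb45 was then 0.107, 0.44 and 0.124.

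Of 12 tested probes for other neural transcription factors 1 was higher and 1 lower, which is 16.7% beside 26.1% of all probes, with a median of 0.020. Mef2a, which takes part in synapse refinement, rose by 0.50 ± 0.06 (1.41-fold) in 13 of 13 replicates (adjusted p = 0.000194, limma), and the call held in all 25 alternatives. Sox8, a factor of oligodendrocyte maturation, fell by 0.46 ± 0.10 in 11 of 11 replicates (adjusted p = 0.00651), and its adjusted p was 0.106 without the unnumbered cortex array. Of 18 genes listed as known targets of the members only Id1 and Id2 entered the fit, on 3 probes, with Id1, a target that Zbtb18 represses, at -0.084. Id2, also listed as a target of Zbtb18, stood at 0.14 and 0.090 on its probes. Of the 3 probes 1 was called, the first of Id2, which is 33.3% beside 26.1% of all probes.

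**Figure D5:**
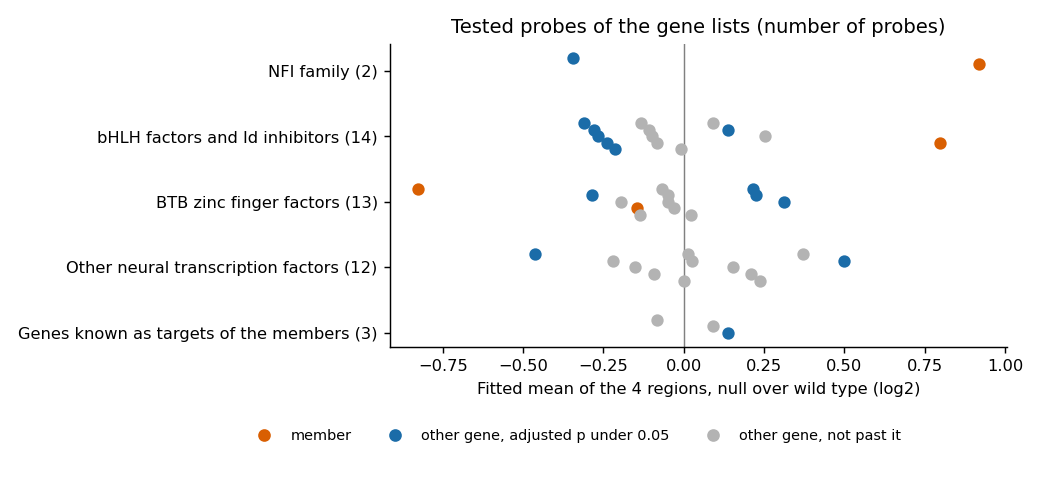
Fitted mean log2 ratio of null over wild type for each tested probe of the 5 gene lists, with the number of probes beside each name. Orange marks the members, blue other probes with an adjusted p under 0.05 and grey the rest. The members were chosen on this contrast. Of them Nfix, Tcf4 and Zbtb18 are the outermost points, and the other called probes lie between -0.46 and 0.50.

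Few markers of single cell types had values. In whole regions, fewer cells of a type and less RNA per cell cannot be told apart. Of 4 neuronal genes the tubulin Tubb3 fell by 0.66 ± 0.11 (adjusted p = 0.00119, limma, 12 of 13 replicates) and 1 of the 4 probes of Calb1 rose by 0.23 ± 0.07 (adjusted p = 0.0363), with a median of -0.0064 over 7 probes. The other probes of Calb1 stood at 0.071, 0.020 and -0.0064 and did not pass. Of 3 astrocyte genes Slc1a3, a glutamate transporter, rose by 0.14 ± 0.05 (adjusted p = 0.0411, 11 of 13 replicates), while Glul stood at -0.064 and Aldoc at -0.056, and the median of the list was -0.056. The calls of Calb1 and Slc1a3 held in 13 of 23 and 12 of 25 alternatives. The only oligodendrocyte gene, Mbp, had a mean of -0.039 ± 0.10, and 0 of 3 microglial genes were called, beside 26.1% of all probes. These means cover region values of opposite sign, though the F test of regions called none. Mbp stood at -0.32 in cortex and 0.23 in cerebellum, C1qb at -0.33 and 0.43, and C1qc at -0.18 and 0.38. Of 2 choroid plexus genes Igf2 fell by 0.34 on 1 probe (adjusted p = 0.00832), and its other probe stood at -0.20 and was not called. Ttr fell by 0.31 in the mean (adjusted p = 0.0419, limma), with 4 of 13 replicates above 0. Its value was 0.68 in hippocampus, -0.70 in cortex and -1.05 in cerebellum, its call held in 9 of 25 alternatives, and it turned to 0.15 with only the arrays that held the null RNA in channel 1. Of 2 vessel and blood genes Pecam1 fell by 0.44 while Hbb-b1 rose by 0.56. The part of cell makeup in the ratios of the members was not tested.

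The genes whose ratios ran most like those of a member over the replicates were named by Pearson correlation, as a description of replicates that share the pool and, in a region, the arrays. For Nfix these were Chn1 (0.91), Strap (0.90), Etf1 (0.88), Tcf4 (0.88) and Ttc9c (0.88), over 12 or 13 replicates. Tcf4 probe 12756 was thus among the 5 most like Nfix. In both probes the replicates of number 1 lay apart from the others when the repeated array was left out, while the correlations keep that array. For Tcf4 they were Foxo1 (0.93), Rev3l (0.93), Srp54a (0.93), Pik3ca (0.91) and Itm2b (0.91), over 12 replicates. For Zbtb18 they were Mrpl46 (0.94), Dstyk (0.88), Erg28 (0.87), Arf3 (0.86) and Thg1l (0.84). Zbtb18 correlated with Nfix at -0.29 and with Tcf4 at -0.49. For Zbtb20, whose sign followed the channel, Nop53, Il13ra1, Nab1, Rpl23 and Oaz1 had correlations from 0.89 to 0.91.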

How the data were processed

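The authors deposited 1 log ratio per probe and array, which is read here as log2. The labels do not state the base, the order of the channels or the steps before deposit. Each array was centred on its median, and arrays with the null RNA in channel 2 were multiplied by -1. Probes were named through the platform table, of which 9496 of 9604 single symbols matched a current gene. A probe needed a value on 3 arrays of every region and on 1 array of each orientation there, which kept 9701 probes. Each probe was fitted by itself with a term per region and 1 for orientation, exactly for its missing values, and variances were moderated with limma (version 3.58.1, under R 4.3.3), with 8 residual and 6.2 prior degrees of freedom. The wild-type pool's own spread is left out, as is what replicates of one number share across regions. P-values were adjusted over all probes by the Benjamini-Hochberg method (threshold 0.05). The script was tested on simulated data.

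The members and lists were chosen with earlier results of these data known. Named were all members, the NFI genes and E proteins, per list up to 4 called probes with the smallest p (or 2 where none was called), and per member the 5 most alike probes by correlation with at least 12 shared replicates; RIKEN clones and predicted genes were left out. The upstream sequences come from RefSeq.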

Additional observations from a re-analysis of the deposited data

How the results depend on the processing

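Over 26 alternatives the means of Nfix (0.79 to 1.29) and Zbtb18 (-1.02 to -0.64) kept their sign, as did that of Tcf4 (0.57 to 1.22) over the 25 that gave it a value. Zbtb20 (-0.18 to 0.10) turned to 0.10 with only the arrays that held the null RNA in channel 1, which leaves out 8 arrays. The count of probes called in the mean was 2529 and ran from 1055 to 3018 when 1 replicate was left out, and was 1647 without the repeated array. Over all alternatives it ran from 1055 to 3751, the highest without the channel 1 arrays of number 1. The F test called 0 probes, 0 to 4 when 1 replicate was left out, 3 after scaling to one spread, 4 with a random block, 1 without the repeated array, 3 without the channel 1 arrays of number 1, 4 with only channel 1 arrays, and 13 without the repeated array and the replicates of number 1 (added after seeing the data). It called 0 member probes in every alternative. The causes were not tested. With the number as a replicate block the F test called 23 probes. The errors of the regions were then smaller, as in Nfix (cerebellum 1.30 ± 0.17, cortex 0.72 ± 0.14) and Tcf4 (hippocampus 0.94 ± 0.13, brain stem-diencephalon 0.43 ± 0.13), and cortex (1.06) stood above hippocampus for Tcf4. Residuals of replicates with one number correlated at -0.16 to 0.71 (14 of 18 pairs above 0.1, all 6 pairs of number 1 among them), and 7 of 12 numbered replicates correlated best with their own number. Since 4 pairs were not above 0.1, the numbers were not taken to pair the samples. The main fit thus treats its 13 replicates as independent. Its errors and p-values leave out what replicates of one number share across regions, so the errors of the mean may be too small. Errors of the differences between regions may in turn be too large, which would make the test of regions weaker. The number of arrays and the unknown signal over background limit the precision.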
